A study of Homo sapiens with 4 samples.

Results

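Aminoacyl-tRNA synthetases join each amino acid to its transfer RNA, the step that sets the match between codons and amino acids in translation. Human cells hold a set of cytosolic enzymes and, from separate nuclear genes, a set of mitochondrial enzymes that are imported to charge the transfer RNAs of mitochondrial translation. Several cytosolic enzymes assemble with AIMP scaffold proteins into the multisynthetase complex, and many cytosolic synthetase genes are known targets of ATF4, the transcription factor of the amino acid response. The 38 genes described here were chosen by name. They are 20 genes of cytosolic enzymes or their subunits, 16 genes of mitochondrial enzymes and the 2 scaffold genes AIMP1 and AIMP2. All 38 had a row among the 15279 named rows of the table and all 38 passed the filter on low counts.

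The data are bulk RNA-seq of human breast cancer cells. MDA231-BR is the group name of 2 libraries of MDAMB231Br, a line labelled as a breast cancer brain metastasis, and MDA231-P that of 2 libraries of MDAMB231, labelled as breast cancer. MDA-MB-231 is an established triple-negative breast cancer line, and the Br line is a derivative of it with an affinity for the brain. Both lines grew as cultured cells in DMEM medium with 10% serum and no other treatment is labelled, so no brain tissue was present. Nothing in the labels says that a line's libraries are from separate cultures, so the p-values reflect library-to-library spread alone, and that spread may be technical. The libraries of a line are called A and B in the order of their columns.

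The MDA231-BR libraries held 28107820 and 25835225 reads in named genes, and the MDA231-P libraries 30771290 and 27554570. All 10 listed markers of the MDA-MB-231 line were measured and passed the filter, and they went both ways between the lines. Vimentin (VIM), with 118095 and 119552 normalized reads in MDA231-BR and 42476 and 38423 in MDA231-P, and PLAUR (log2 fold change 2.20) were higher, CAV1, with 10799 and 9773 in MDA231-BR and 27966 and 27283 in MDA231-P, and TGFBI (-1.63) were lower, and the other 6 did not pass. Of 12 luminal breast markers, 10 had a row, 8 were tested and none passed. The most abundant, the keratin gene KRT19, had 4375 and 3009 normalized reads in MDA231-BR and 2624 and 3186 in MDA231-P, and KRT8 had 2452 and 2438 in MDA231-BR and 3504 and 3023 in MDA231-P. The oestrogen receptor gene ESR1 did not pass the filter, at 6.72 and 26.5 normalized reads in MDA231-BR and at 0 and 1.94 in MDA231-P. MDA231-BR library B stood apart from the other libraries in other gene groups. Its interferon response genes summed to 0.349% of the normalized signal, against 0.0714% in MDA231-BR library A and 0.0737% and 0.0794% in MDA231-P. Its endoplasmic reticulum stress genes summed to 2.54%, against 0.934% in library A and 0.851% and 0.787% in MDA231-P. A group of 15 pseudogenes of mitochondrial genes took 0.17% of its reads, against 0.0483% in library A and 0.0431% and 0.0425% in MDA231-P.

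The deposited values are read counts divided by a size factor of the library, called normalized reads here. Fold changes are MDA231-BR minus MDA231-P on the log2(value + 1) scale, tested with limma and with Benjamini-Hochberg adjustment across the 14424 genes tested and 0.05 as the threshold. In this comparison 14.4% of all genes tested passed, 8.61% as higher and 5.8% as lower in MDA231-BR. Of the 38 synthetase and scaffold genes, 2 passed (5.26%). FARSA, which encodes the catalytic subunit of cytosolic phenylalanyl-tRNA synthetase, was higher in MDA231-BR, and TARS, which encodes cytosolic threonyl-tRNA synthetase, was lower. The other 36 did not pass. The same 2 genes were the only members to pass with edgeR (15.4% of all genes), limma-voom and every other scaling, pseudocount and filter tried, under which 12.3% to 17.2% of all genes passed, and DESeq2 added WARS. In bulk libraries, a difference in RNA per cell and a difference in the share of cells that express a gene cannot be told apart.

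Most of the 38 genes had small fitted changes between the lines. The median log2 fold change of the 38 was 0.20, against 0.01 over all genes tested, with 23 fitted above 0 and 15 below, against 50.9% above 0 over all genes tested. For 30 genes the fitted change was smaller than 0.5 on the log2 scale in either direction. For 28 genes, among them 15 cytosolic and 11 mitochondrial enzymes, the 95% interval of the fit excluded a 2-fold change. The intervals of CARS, FARSA, NARS, TARS, WARS, CARS2, HARS2, MARS2, PARS2 and SARS2 did not. The counts of small changes and of such intervals were not made over all genes tested. They therefore do not show whether the 38 genes are more stable than others. At an unadjusted p below 0.05 there were 7 genes (18.4%), which were CARS, FARSA, NARS, TARS, WARS, YARS and PARS2, against 31.8% of all genes tested. The libraries of the lines did not overlap for 16 genes that were higher in MDA231-BR, against 31.7% of all genes tested, and for 10 that were lower, against 29.7%. By catalytic class, the 19 genes of class I had a median of 0.18 and none passed. EPRS, which charges both glutamate and proline, was counted in class I only. The 17 of class II had a median of 0.22 and include both that passed. Over all genes tested 14.4% passed. The 38 genes together took 0.575% and 0.556% of the normalized signal in MDA231-BR and 0.609% and 0.554% in MDA231-P, so their summed share overlapped between the lines.

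**Figure D1:**
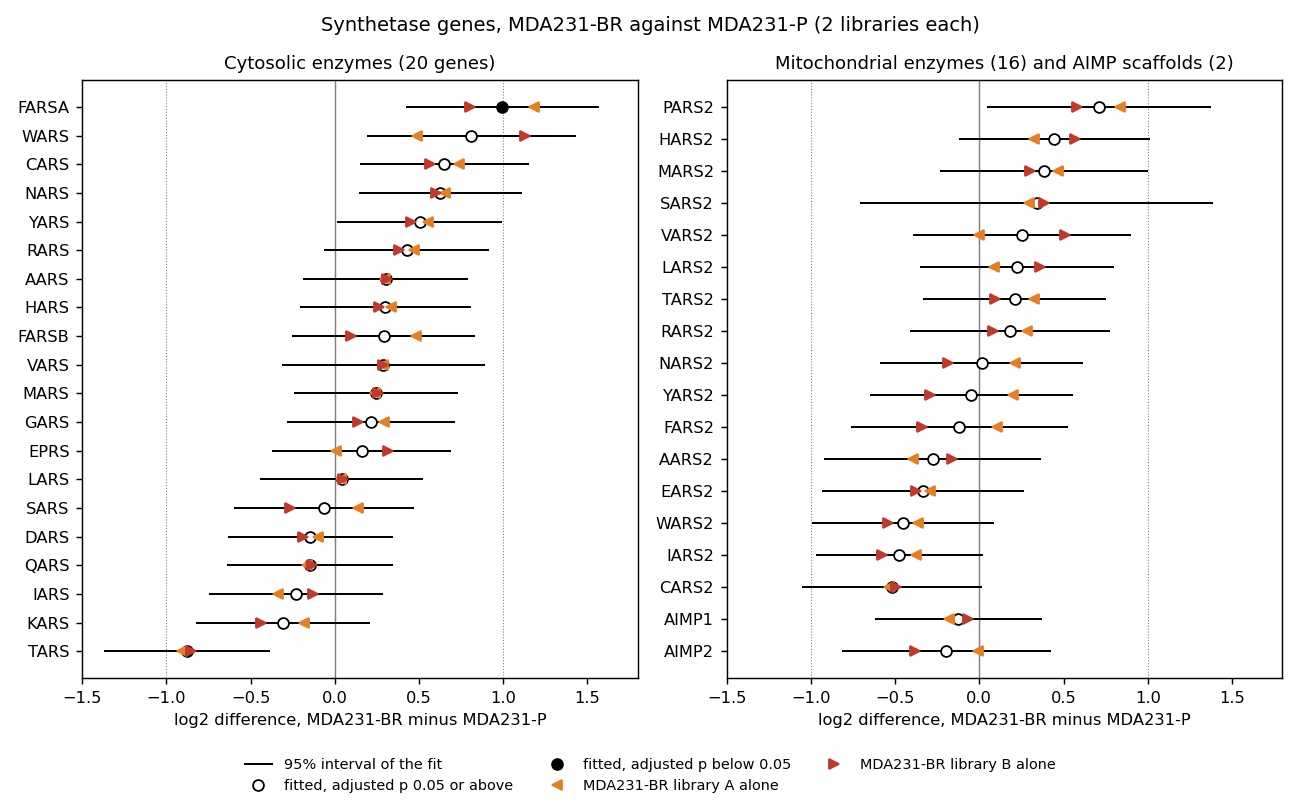
Fitted log2 differences, MDA231-BR minus MDA231-P, of the 20 cytosolic (left) and 16 mitochondrial and 2 scaffold genes (right), with 95% intervals as lines, filled circles where adjusted p is below 0.05, and triangles for each MDA231-BR library alone against the MDA231-P mean. Only FARSA, at 0.99, and TARS, at -0.88, have filled circles.

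Phenylalanyl-tRNA synthetase of the cytosol is built from catalytic FARSA subunits and FARSB subunits, and FARSA had the largest fitted increase of the 38 genes. FARSA had 3221 and 2476 normalized reads in MDA231-BR, against 1587 and 1265 in MDA231-P. Both MDA231-BR libraries lay above both MDA231-P libraries. The means were 2849 ± 526 normalized reads in MDA231-BR and 1426 ± 228 in MDA231-P (SD, n = 2 each), and the log2 fold change was 0.99 ± 0.25 (SE; a fitted fold of 1.99; limma adjusted p = 0.0348). FARSB had 3781 and 2888 normalized reads in MDA231-BR, against 2872 and 2540.5 in MDA231-P, with a log2 fold change of 0.29 ± 0.24 (SE; limma adjusted p = 0.43). Its MDA231-BR libraries also lay above both MDA231-P libraries, by a margin that did not pass the test. Per kilobase of exon, the ratio of FARSA to FARSB was 1.37 and 1.38 in MDA231-BR and 0.89 and 0.802 in MDA231-P. By this measure FARSA was the higher subunit in both MDA231-BR libraries and FARSB in both MDA231-P libraries. Which subunit is higher rests on the exon lengths used, 2.091 kb for FARSA and 3.369 kb for FARSB. In normalized reads FARSB was higher in all 4 libraries. A 2-sided exact permutation test of the FARSA to FARSB ratio gave p = 0.333, the smallest that 2 against 2 libraries allow. FARS2, the separate mitochondrial phenylalanyl-tRNA synthetase, had a log2 fold change of -0.12 (limma adjusted p = 0.802), with overlapping lines.

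The region before the annotated start of FARSA is shown because FARSA is the member that rose. RefSeq places its start on the minus strand of chromosome 19, and the 250 bases before it (GRCh38.p14, chr19:12933712-12933961, minus strand) read as follows.
FARSA: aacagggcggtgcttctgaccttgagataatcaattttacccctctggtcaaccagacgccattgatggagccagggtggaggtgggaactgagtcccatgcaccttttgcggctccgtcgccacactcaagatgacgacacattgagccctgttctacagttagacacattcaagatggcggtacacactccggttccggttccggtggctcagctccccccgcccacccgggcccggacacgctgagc
No letters are in capitals because none of the 5 motifs searched on both strands occurs in this window. These were TGATGNAA (the C/EBP-ATF response element of ATF4 targets), the core of the interferon-stimulated response element (GAAA, any 2 bases, GAAA) and TTCNNNGAA (the gamma-activated site of interferon gamma targets). The others were CCGGAAG (a form of the site bound by ETS factors, called the ETS core here) and CACGTG (the E-box bound by MYC). The result says only that these letters are not in this window. Shorter or variant forms were not searched.

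TARS had the largest fitted decrease of the 38 genes and was the most abundant of them per length in MDA231-P. TARS had 11889.5 and 12324 normalized reads in MDA231-BR, against 23006 and 21535 in MDA231-P. The lines did not overlap, and each pair of libraries was close. The means were 12107 ± 307 normalized reads in MDA231-BR and 22270.4 ± 1039.5 in MDA231-P (SD, n = 2 each), and the log2 fold change was -0.88 ± 0.21 (SE; a fitted fold of 0.544; limma adjusted p = 0.0322). Per kilobase of exon, TARS averaged 2657 ± 67.4 normalized reads in MDA231-BR and 4888 ± 228 in MDA231-P, which put it at rank 6 of 38 in MDA231-BR and at rank 1 in MDA231-P. TARS2, the mitochondrial threonyl-tRNA synthetase, had 1048 and 893 normalized reads in MDA231-BR and 853 and 819 in MDA231-P, with a log2 fold change of 0.21 that did not pass (limma adjusted p = 0.573). TARSL2, a second cytosolic threonyl-tRNA synthetase gene that is not among the 38, had 185 and 217 normalized reads in MDA231-BR and 168 and 153 in MDA231-P (limma adjusted p = 0.487). The fall was thus measured in TARS, while TARS2 and TARSL2 were fitted above 0 without passing. The per-kilobase ratio of TARS to TARS2 was 6.95 and 8.45 in MDA231-BR and 16.5 and 16.1 in MDA231-P.

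Both calls rest on having both MDA231-P libraries. In the fits below, a line left with 1 library was assumed to vary like the other line. The spread of that line is therefore not in their p-values. Without MDA231-P library A, FARSA had a log2 fold change of 1.16 (limma adjusted p = 0.121) and TARS of -0.83 (0.229), and without MDA231-P library B the values were 0.83 for FARSA (0.314) and -0.93 for TARS (0.242), while 2.92% and 2.97% of all genes passed in those fits. With a single MDA231-BR library both genes stayed past the threshold and 1 more member joined them. It was WARS with library B alone, where 36.4% of all genes passed, and CARS with library A alone, where 21.8% passed.

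RefSeq gives TARS a start at each of 2 places on the plus strand of chromosome 5. The 250 bases before one of them (GRCh38.p14, chr5:33440446-33440695, plus strand) are shown because TARS is the member that fell and the window holds a pair of the motifs.
TARS: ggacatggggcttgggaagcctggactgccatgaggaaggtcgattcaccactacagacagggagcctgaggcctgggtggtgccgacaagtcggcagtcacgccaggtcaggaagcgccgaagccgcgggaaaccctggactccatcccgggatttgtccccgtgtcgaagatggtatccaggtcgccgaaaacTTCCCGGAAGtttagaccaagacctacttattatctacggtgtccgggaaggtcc
The capitals mark a match to TTCNNNGAA that begins 55 bases before the start and, overlapping it, a CCGGAAG that begins 52 bases before the start. The window of the other TARS start also held a TTCNNNGAA, 127 bases before that start, and no CCGGAAG. TTCNNNGAA is in 6.57% of all 35116 RefSeq promoter windows and the ETS core in 8.52%. Among windows of genes in the table the shares are 5.52% for TTCNNNGAA and 13.8% for the ETS core. These are matches of letters and not measured binding sites.

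**Figure D2:**
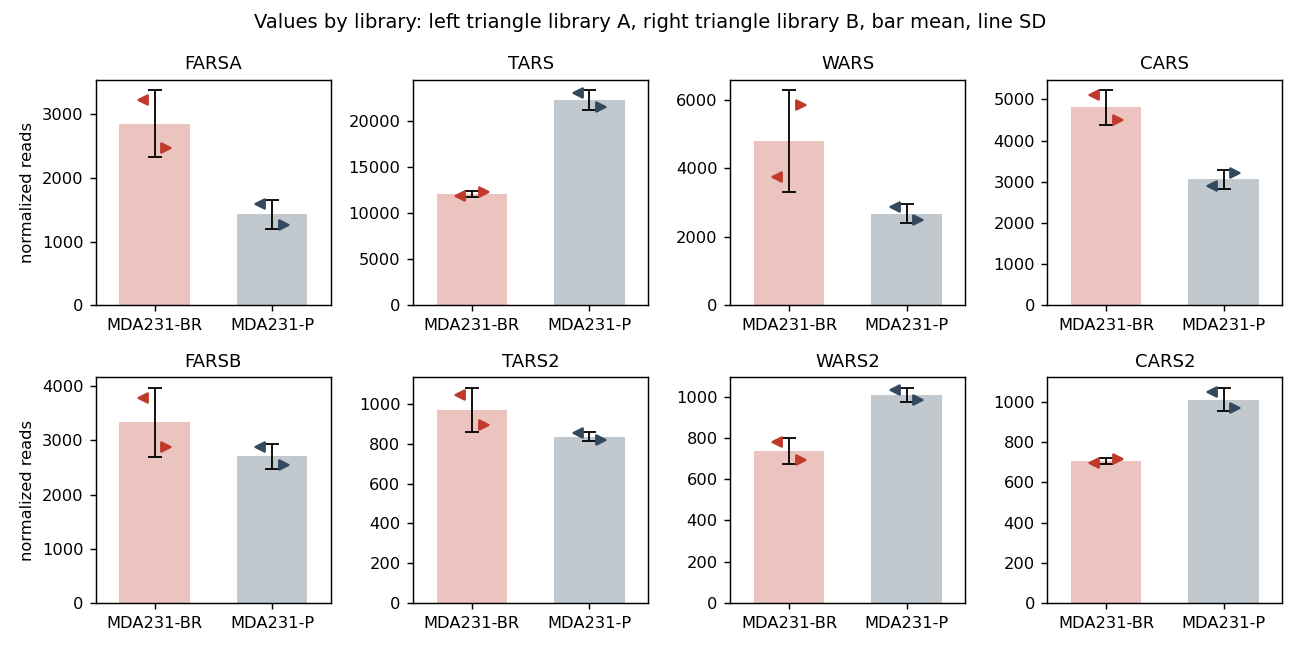
Normalized reads of FARSA, FARSB, TARS, TARS2, WARS, WARS2, CARS and CARS2 in each library (triangles: left for library A, right for library B), with the mean of 2 libraries as a bar and the SD as a line, MDA231-BR left of MDA231-P. FARSA and TARS passed the test, and the bars of CARS2 and WARS2 are lower in MDA231-BR while those of CARS and WARS are higher, without passing.

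Among the cytosolic enzymes, 14 of 20 were fitted above 0 and 6 below, with a median log2 fold change of 0.27, against 0.01 over all genes tested. The 12 cytosolic genes whose products are not in the multisynthetase complex had a median of 0.30, with 10 fitted above 0 (50.9% of all genes tested were), and in 9 of them the MDA231-BR libraries lay above both MDA231-P libraries (31.7% of all genes tested). The 8 enzymes of the complex and its 2 scaffolds had a median of -0.13 and a range of -0.31 to 0.43, with 4 fitted above 0 and 6 below. None of the 10 passed the test, against 14.4% of all genes tested, and 10 genes are few for such a count. The groups were not tested against each other.

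Outside the complex, WARS (cytosolic tryptophanyl-tRNA synthetase, known as the synthetase that interferon gamma induces) came next to FARSA. WARS had 3731 and 5830.3 normalized reads in MDA231-BR, against 2859 and 2475 in MDA231-P. Both MDA231-BR libraries were higher than both MDA231-P libraries, and library B was well above library A. The log2 fold change was 0.81 ± 0.27 (SE) and did not pass with limma (adjusted p = 0.0815) or with edgeR (adjusted p = 0.0721), while DESeq2 called it (adjusted p = 0.0356), a test that called 20.2% of all genes. The size of the change also turned on the library. With library B alone, WARS had a log2 fold change of 1.13, and with library A alone 0.49.

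The other genes outside the complex stood below WARS. CARS, cysteinyl-tRNA synthetase, had 5097 and 4512 normalized reads in MDA231-BR, against 2900.0 and 3219 in MDA231-P (log2 fold change 0.65 ± 0.22 SE, limma adjusted p = 0.0832). NARS, asparaginyl-tRNA synthetase, had 8394 and 8099 in MDA231-BR, against 5514 and 5175 in MDA231-P (0.63 ± 0.21 SE, adjusted p = 0.0841). In both genes each MDA231-BR library exceeded each MDA231-P library, and neither passed. CARS had a log2 fold change of 0.74 with library A as the only MDA231-BR library and of 0.56 with library B. YARS, tyrosyl-tRNA synthetase, had 5819 and 5438 normalized reads in MDA231-BR and 4116 and 3828 in MDA231-P (0.50, adjusted p = 0.147).

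Of the rest, 4 genes were fitted between 0.22 and 0.30 and SARS just below 0. AARS (alanine) had 4626 and 4665 normalized reads in MDA231-BR and 3982 and 3569 in MDA231-P, a log2 fold change of 0.30 with a 95% interval of -0.19 to 0.79. HARS (histidine) was likewise at 0.30 and VARS (valine) at 0.29 with an interval of -0.32 to 0.89. SARS (serine) was at -0.07 with an interval of -0.60 to 0.47. GARS, whose gene supplies glycyl-tRNA synthetase to both the cytosol and mitochondria, had 12876 and 11574 normalized reads in MDA231-BR and 11021 and 10033 in MDA231-P, and its log2 fold change of 0.22 had an interval of -0.28 to 0.71. GARS was the most abundant of the 38 genes per kilobase in MDA231-BR, with 4609.6 ± 347 normalized reads there and 3969 ± 263 in MDA231-P (SD, n = 2 each).

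The promoter windows of WARS, AARS and IARS are shown because they hold motifs of the regulators for which these genes are known. RefSeq gives WARS 2 starts on the minus strand of chromosome 14. The 250 bases before one of them (GRCh38.p14, chr14:100375348-100375597, minus strand) hold 2 of the interferon-related motifs in capitals.
WARS: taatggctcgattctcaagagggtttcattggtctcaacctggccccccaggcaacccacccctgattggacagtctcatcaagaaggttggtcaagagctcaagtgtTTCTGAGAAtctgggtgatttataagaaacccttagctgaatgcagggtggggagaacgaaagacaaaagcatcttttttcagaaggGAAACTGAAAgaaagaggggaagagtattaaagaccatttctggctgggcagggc
The first run of capitals is a match to TTCNNNGAA 142 bases before the start. The second is a match to the interferon-stimulated response element core 55 bases before it. That core is present in 3.02% of all windows and in 2.4% of the windows of genes in the table. It was in 6.82% of member windows, those of WARS and of EARS2, which had a log2 fold change of -0.33. TTCNNNGAA was in 13.6% of member windows, those of TARS, WARS, PARS2 and WARS2. These genes had log2 fold changes of -0.88, 0.81, 0.71 and -0.45, and only TARS passed the test. Neither motif was in the window of the other WARS start. The reads cannot say which start was used, since the table gives a single value per gene. The stretches around the match to TGATGNAA in AARS (GRCh38.p14, chr16:70289675-70289704, minus strand) and IARS (GRCh38.p14, chr9:92293698-92293721, minus strand) are set side by side, with the match in capitals. It lies on the opposite strand to the gene in both.
AARS: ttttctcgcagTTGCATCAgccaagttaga
IARS: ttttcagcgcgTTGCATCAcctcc
The match lies 187 bases before the AARS start and 13 bases before the IARS start. Of the 32 members with a RefSeq window, 4 held TGATGNAA, which were AARS, GARS, IARS and YARS2. The motif was in 9.09% of member windows, against 3.14% of all windows and 1.72% of the windows of genes in the table. These 4 genes had log2 fold changes of 0.30, 0.22, -0.23 and -0.05, and none passed the test. The ETS core CCGGAAG was in 16 of the 32 members and in 40.9% of their windows, against 8.52% of all windows and 13.8% of the windows of genes in the table. These shares are descriptions, since windows of a gene with several starts overlap or share their gene. HARS and HARS2, both among the 16, also hold the same ETS core sites between their starts.

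Within the multisynthetase complex, lysyl-, isoleucyl-, glutaminyl- and aspartyl-tRNA synthetase were fitted below 0 and leucyl-, glutamyl-prolyl-, methionyl- and arginyl-tRNA synthetase above 0. KARS, the lysyl enzyme of both cytosol and mitochondria, had 6620.3 and 5543 normalized reads in MDA231-BR and 8088 and 6968 in MDA231-P (log2 fold change -0.31, 95% interval -0.83 to 0.21). RARS, the arginyl enzyme, had 8058 and 7602 in MDA231-BR and 6088 and 5576 in MDA231-P (0.43, interval -0.06 to 0.91). KARS was the lowest and RARS the highest of the complex, and the libraries of the lines did not overlap for either. IARS was at -0.23, with 11585 and 13359 normalized reads in MDA231-BR and 15821 and 13499 in MDA231-P. QARS was at -0.15 and DARS at -0.14, DARS with 8216 and 7727 normalized reads in MDA231-BR and 8445 and 9187 in MDA231-P. DARS had rank 3 per kilobase in both lines. LARS had a log2 fold change of 0.04, EPRS, a single protein that charges both glutamate and proline, of 0.16, and MARS of 0.25.

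The scaffolds of the complex were fitted below 0 and did not pass. AIMP1 had 2310.5 and 2504 normalized reads in MDA231-BR and 2540.0 and 2703 in MDA231-P (log2 fold change -0.12, limma adjusted p = 0.726). AIMP2 had 569 and 439 normalized reads in MDA231-BR and 635 and 516 in MDA231-P (-0.20, adjusted p = 0.654). EEF1E1, which encodes the third AIMP scaffold and is not among the 38, had 1726 and 928 normalized reads in MDA231-BR and 1388 and 2372 in MDA231-P (-0.52, adjusted p = 0.364). The libraries of each line spread more for EEF1E1 than for AIMP1. Of the exon bases of AIMP2, 38.7% lie over EIF2AK1 on the opposite strand in GENCODE 29, and with no strand setting given the reads of such partners cannot be told apart.

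None of the 16 mitochondrial enzymes passed the test, against 14.4% of all genes tested. A group of 16 genes is small for such a comparison. The median log2 fold change of these enzymes was 0.10, with a range of -0.52 to 0.71. Of them, 9 were fitted above 0 and 7 below, against 50.9% above 0 over all genes tested. Their summed level was 0.0674% and 0.0608% of the normalized signal in MDA231-BR and 0.0774% and 0.0757% in MDA231-P, so both MDA231-BR libraries were below both MDA231-P libraries. This difference was carried by IARS2, without which the other 15 summed to 9806 and 9351 normalized reads in MDA231-BR and 9697 and 9114 in MDA231-P, with overlap. The summed cytosolic enzymes overlapped at 0.497% and 0.485% in MDA231-BR and 0.519% and 0.466% in MDA231-P. IARS2 had the most normalized reads of the 16. IARS2, the isoleucyl enzyme, had 8383 and 7291 normalized reads in MDA231-BR and 10623 and 11122 in MDA231-P (log2 fold change -0.48, 95% interval -0.97 to 0.02).

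The lowest fitted change was that of CARS2, the mitochondrial cysteinyl enzyme, with 696 and 716 normalized reads in MDA231-BR and 1053 and 972 in MDA231-P (log2 fold change -0.52, limma adjusted p = 0.168). WARS2, the tryptophanyl enzyme, had 783 and 692 in MDA231-BR and 1032 and 984 in MDA231-P (-0.45, adjusted p = 0.224). EARS2, the glutamyl enzyme, had 524 and 494 in MDA231-BR and 738 and 558 in MDA231-P (-0.33, adjusted p = 0.412). In all of these, the MDA231-BR libraries lay below the MDA231-P libraries by a margin that did not pass. AARS2, the alanyl enzyme, was at -0.28 with overlapping lines.

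At the other end, PARS2, the prolyl enzyme, had 309 and 259 normalized reads in MDA231-BR and 186 and 160.1 in MDA231-P, without overlap (log2 fold change 0.71 ± 0.29 SE, limma adjusted p = 0.136). HARS2 (histidine) had 779 and 922 in MDA231-BR and 668 and 579 in MDA231-P (0.45, adjusted p = 0.252), and MARS2 (methionine) 615 and 549 in MDA231-BR and 515 and 384 in MDA231-P (0.38, adjusted p = 0.36). These MDA231-BR libraries also lay above the MDA231-P libraries without passing. LARS2 at 0.22, TARS2 at 0.21, RARS2 at 0.18, NARS2 at 0.01 and FARS2 at -0.12 were closer to 0. VARS2 had 465 and 663 normalized reads in MDA231-BR and 506 and 429.7 in MDA231-P, and YARS2 had 893 and 637 in MDA231-BR and 787 and 770.2 in MDA231-P. For VARS2, MDA231-BR library A lay between the MDA231-P libraries and library B above both, and for YARS2, library A lay above both and library B below both.

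SARS2, the seryl enzyme, was the least abundant member, with 25.9 and 27.6 normalized reads in MDA231-BR and 20.5 and 21.3 in MDA231-P, and its 95% interval of -0.71 to 1.39 was the widest. In GENCODE 29, 83.1% of its exon bases are shared with other genes, 67.4% with AC011455.2 on the same strand and the rest with MRPS12 on the opposite strand, so its level is uncertain. HARS and HARS2 lie head to head on chromosome 5, and 402 exon bases of theirs overlap on opposite strands. The 84 bases between their RefSeq starts (GRCh38.p14, chr5:140691371-140691454, plus strand) are shown because they separate the starts of a cytosolic and a mitochondrial enzyme of the same amino acid.
HARS and HARS2: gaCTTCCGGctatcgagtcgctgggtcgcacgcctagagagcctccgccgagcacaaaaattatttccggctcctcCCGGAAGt
The capitals mark the ETS core, once on each strand. The genes had log2 fold changes of 0.30 for HARS and 0.45 for HARS2, and the lines did not overlap for either, with 3181 and 3024 normalized reads of HARS in MDA231-BR and 2739 and 2321 in MDA231-P.

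Cytosolic enzymes were expressed at higher levels per length than mitochondrial ones. The median over the 20 cytosolic genes was 1821.5 normalized reads per kilobase of exon in MDA231-BR and 1504 in MDA231-P, and over the 16 mitochondrial genes 234 in MDA231-BR and 211 in MDA231-P. The cytosolic genes ran from 733 for HARS to 4609.6 for GARS in MDA231-BR and from 598 for HARS to 4888 for TARS in MDA231-P. In 16 of 17 pairs for the same amino acid (EPRS was paired with EARS2 and with PARS2, and FARSA and FARSB each with FARS2), the cytosolic gene was higher per kilobase than the mitochondrial one in all 4 libraries. The exception was isoleucine, where the ratio of IARS to IARS2 was 1.03 and 1.36 in MDA231-BR and 1.11 and 0.902 in MDA231-P. IARS2 was the most abundant mitochondrial enzyme, at 2201 ± 217 normalized reads per kilobase in MDA231-BR and 3054 ± 99.1 in MDA231-P (SD, n = 2 each).

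**Figure D3:**
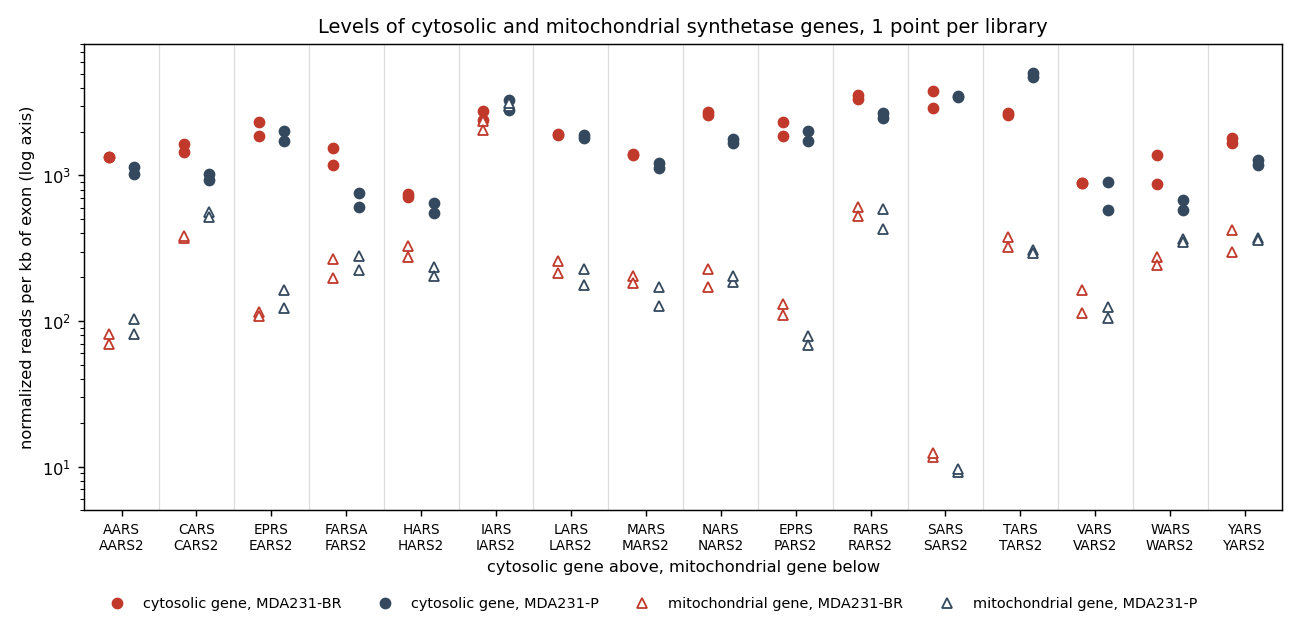
Normalized reads per kilobase of exon (log axis) of cytosolic (circles) and mitochondrial (triangles) genes for the same amino acid, 1 point per library, MDA231-BR in red left of MDA231-P in dark blue. Cytosolic genes lie above their mitochondrial partners except for IARS and IARS2, whose points mix, and SARS2 lies lowest at a mean of 12.1 in MDA231-BR and 9.44 in MDA231-P.

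The order of levels was only partly resolved by 2 libraries a line. In MDA231-BR the highest were GARS, RARS, DARS, SARS, NARS and TARS, and in MDA231-P they were TARS, GARS, DARS, SARS, KARS and IARS. Of the 37 neighbouring pairs in the order, 25 overlapped between libraries in MDA231-BR and 22 in MDA231-P. FARSA stood at rank 15 in MDA231-BR and at rank 20 in MDA231-P, and NARS at rank 5 in MDA231-BR and at rank 11 in MDA231-P.

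For cysteine, tryptophan and threonine the cytosolic and mitochondrial genes were fitted in opposite directions, and of these genes only TARS passed the test. The per-kilobase ratio of CARS to CARS2 was 4.41 and 3.79 in MDA231-BR and 1.66 and 1.99 in MDA231-P. The ratio of WARS to WARS2 was 3.18 and 5.63 in MDA231-BR and 1.85 and 1.68 in MDA231-P. Both ratios were higher in each MDA231-BR library than in each MDA231-P library, while that of TARS to TARS2 was lower. A 2-sided exact permutation test gave p = 0.333 for each of these ratios, the smallest that 2 against 2 libraries allow. The ratios of other pairs, among them AARS to AARS2 and NARS to NARS2, did not overlap between the lines either. Of the 17 pairs, 9 had opposite fitted signs and in 11 the cytosolic gene had the higher log2 fold change.

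Each MDA231-BR library was also set against the MDA231-P mean, so both comparisons share the same MDA231-P libraries. In them the median log2 difference of the 20 cytosolic genes was 0.29 for library A and 0.26 for library B. For the mitochondrial genes library A gave 0.15 and library B gave -0.04. For all 38 genes library A gave a median of 0.21 and library B of 0.10. The libraries differed by a median of 0.19 in absolute log2 value over the 38 genes, against 0.38 over all genes tested, 1.23 over the endoplasmic reticulum stress genes and 1.72 over the interferon genes. FARSA was at 1.18 by library A and 0.81 by library B, and TARS at -0.90 by library A and -0.85 by library B.

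WARS differed most between the MDA231-BR libraries, by 0.64 on the log2 scale (0.49 for library A, 1.13 for library B), followed by VARS2 by 0.51 and YARS2 by -0.49. The interferon genes had a median log2 difference of 0.04 for library A but 1.97 for library B, and the endoplasmic reticulum stress genes of 0.18 for library A but 1.39 for library B. The interferon target IFIT2 had 357 and 19259.5 normalized reads in MDA231-BR, against 665 and 709 in MDA231-P. IRF1, an interferon-induced transcription factor, had 593 and 1212 in MDA231-BR and 687 and 534 in MDA231-P (limma adjusted p = 0.385). IFIT2 and IRF1 were thus higher in library B than in library A, as WARS was. Of 19 interferon genes tested, 11 were above the MDA231-P mean in library A and 18 in library B. PSMB9, with 703 and 442 normalized reads in MDA231-BR, and TAP1, with 2172 and 2089, were lower in library B than in library A. The part of these genes in the WARS result was not tested.

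**Figure D4:**
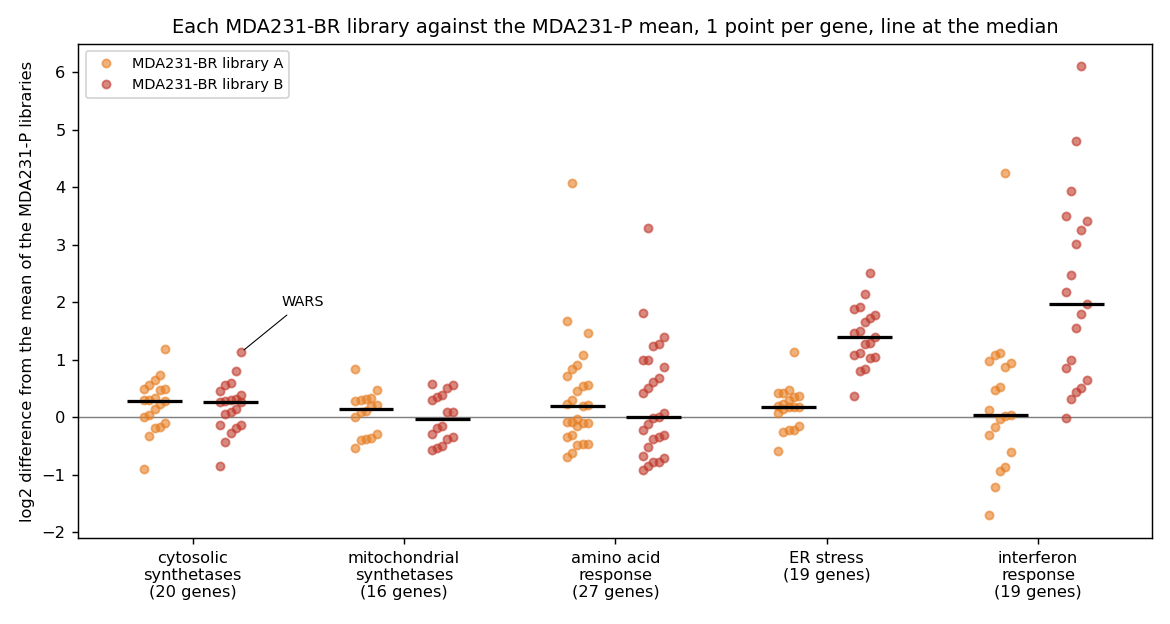
Log2 difference of each MDA231-BR library from the mean of the MDA231-P libraries, 1 point per gene with a line at the median, for the cytosolic and mitochondrial synthetases and for lists of the amino acid, endoplasmic reticulum stress and interferon responses. The cytosolic medians are 0.29 and 0.26 in libraries A and B, while the interferon medians are 0.04 and 1.97.

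The other genes of the pathway were read in the same fit. In the amino acid response list, 5 of 27 genes tested were higher in MDA231-BR, none was lower, and the median log2 fold change was -0.05. PHGDH, the entry enzyme of serine synthesis, had 945 and 552 normalized reads in MDA231-BR and 47.8 and 64.0 in MDA231-P (log2 fold change 3.68, limma adjusted p = 0.00083). CHAC1, a glutathione-degrading enzyme, had 135 and 174 in MDA231-BR and 47.8 and 49.5 in MDA231-P (1.64, adjusted p = 0.0195), and JDP2, a bZIP transcription factor, was at 1.45. The regulator and its classical target ASNS did not pass. ATF4 itself had 6339 and 4315 normalized reads in MDA231-BR and 3794 and 4989.8 in MDA231-P (0.27, adjusted p = 0.531), and ASNS, asparagine synthetase, had 1756 and 1573 in MDA231-BR and 2639 and 2762 in MDA231-P (-0.70, adjusted p = 0.0692).

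Of 14 amino acid transporter genes, 3 were higher in MDA231-BR and none was lower. SLC1A4, a carrier of small neutral amino acids, rose by 1.42 on the log2 scale, SLC1A5, a glutamine carrier, by 1.01 and SLC38A2, another neutral amino acid carrier, by 0.79. SLC1A5 had 6746 and 7544 normalized reads in MDA231-BR and 3797 and 3309.7 in MDA231-P (limma adjusted p = 0.0216). Among 28 tested genes that act on or with charged transfer RNA, SEPSECS, the enzyme that completes selenocysteine on its transfer RNA, was higher, with 614 and 827 normalized reads in MDA231-BR and 228 and 256 in MDA231-P (1.56, adjusted p = 0.01). EEF1A2, an elongation factor that delivers charged transfer RNA to the ribosome, was lower, with 351 and 168 in MDA231-BR and 711 and 734 in MDA231-P (-1.57, adjusted p = 0.0271). None of 12 tested mitochondrial translation factors passed, with a median of -0.07. The most abundant of them, the RNA-binding protein gene LRPPRC, had a log2 fold change of -0.04. The counts in these lists stand beside 8.61% of all genes tested that passed as higher and 5.8% as lower.

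In the list of heat shock and cell dissociation genes, 5 of 15 were higher in MDA231-BR, against 8.61% of all genes tested. All 5 are immediate early genes of transcription, FOSB at 2.50, EGR1 at 1.98, JUNB at 1.93, IER2 at 1.25 and JUN at 1.01, and no heat shock gene of the list passed. In the interferon list 3 of 19 genes were higher, with OAS1 at 5.17, OAS3 at 1.70 and IRF7 at 1.52, and in the endoplasmic reticulum stress list 1 of 19, ERN1 at 1.46. Markers of other cell types were also read. Of 15 brain cell markers 3 had a row, of which MAP2, a microtubule protein of neurons, passed, with 137 and 108 normalized reads in MDA231-BR and 24.7 and 29.1 in MDA231-P. Of 11 endothelial and blood markers 3 had a row, of which KDR, a VEGF receptor, passed, with 519.5 and 603 in MDA231-BR and 53.8 and 77.6 in MDA231-P. Of 8 fibroblast markers 1 had a row, PDGFRB, a PDGF receptor, which was lower, with 15.4 and 31.8 in MDA231-BR and 753 and 531 in MDA231-P (log2 fold change -4.77, limma adjusted p = 0.000653). The markers without a row were not analysed here. Their part in the synthetase results was not tested.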

How the data were processed

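For each gene and each of 4 libraries, the deposited file gives a read signal that the authors had divided by a size factor. Per the submitters' processing notes, the tools were HISAT2, featureCounts and DESeq2 and the build was GRCh37; no version, library kit, strand setting, annotation or gene filter is given in the sources used here. The deposited signal consists of whole multiples of a step in each column, and 100% of values came out as whole reads within 0.01 reads. A column header names its line, not a numbered sample, so A and B are given by column order.

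Of 15346 rows, the 67 unnamed rows, with 0.031% to 0.0369% of reads, were left out, and 20 have names turned into dates. edgeR's filterByExpr (minimum count 10, minimum total 15) left 14424 genes and removed 855. The test was limma-trend (limma 3.58.1, R 4.3.3) on log2(value + 1), which understates changes of low genes, with Benjamini-Hochberg adjustment over all genes tested and a threshold of 0.05. edgeR 4.0.16's quasi-likelihood test called 2228 genes on the recovered reads and limma 2079. The fit was checked on simulated data. A read is worth 0.0325 to 0.0387 CPM. Exon lengths and overlaps came from GENCODE 29 (GRCh38), used by symbol, with 15227 named rows matched; reads were counted by the authors on another build. Promoter sequences are from RefSeq (GRCh38.p14), which matched 32 of the 38 members with 44 windows. Libraries of a line were not copies, with chi-square per degree of freedom of 124 in MDA231-BR and 62.2 in MDA231-P.

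The members and lists were chosen with earlier results of these data known. Values in every library are given for members that passed, the 5 highest and 5 lowest fitted members, the 3 most abundant per length and the 3 that differ most between MDA231-BR libraries, and for others where they fill out a group. Of the other lists, up to 3 passing genes with the largest change in each direction are named, or the most abundant where none passed, and ATF4, ASNS and IRF1 whatever their values. EEF1E1, TARSL2, IFIT2, KRT8, ESR1, JUN and IER2 were named after their values were seen.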

Additional observations from a re-analysis of the deposited data

How the results depend on the processing

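FARSA and TARS passed, and no other member did, under edgeR, limma-voom, pseudocounts of 0.5 and 5, no filter, the stricter filter of 100 reads, scaling to the library total, to the upper quartile or to a median of 0, and robust empirical Bayes. DESeq2 added WARS. Leaving out each library in turn moved the members that passed between 0 and 3, and all genes that passed between 421 and 5257, against 2079 with all libraries. It moved the median log2 fold change of the cytosolic enzymes between 0.16 and 0.34 and that of the mitochondrial enzymes between -0.039 and 0.15. VARS2, at 0.25 with all libraries, was at -0.0046 without MDA231-BR library B and at 0.51 without library A, and YARS2, at -0.05, was at 0.20 without library B and at -0.29 without library A, and the cause was not tested. Of 210 values of named members under 15 alternatives, 201 kept their direction and their side of the threshold. The stricter filter dropped SARS2. Where 1 library was left to a line, it was assumed to vary like the other line. The median 95% interval of a member reached 0.50 to either side for cytosolic and 0.60 for mitochondrial enzymes, so smaller changes are not resolved by 2 libraries a line. Intervals of the fit do not cover shared handling of a line. No paired analysis was possible because the column headers carry no replicate number.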
